A study of Homo sapiens with 12 samples.

Results

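The apolipoprotein L family comprises the genes APOL1, APOL2, APOL3, APOL4, APOL5 and APOL6, and all 6 were found by symbol among the 28278 gene symbols of the bulk RNA-seq count table. The family was chosen by its own readout, the rise of APOL1 and APOL4 in HCQ-evolved pools of both cell lines, so values of the members in HCQ-evolved against control pools are given here as a description with no test. Of the 6 members, 4 reached 1 CPM (here counts scaled to library size alone, before the TMM scaling used for all levels below) in 3 or more libraries of OVCAR3 and so could be tested, and 5 did in CCL218. APOL5 failed this minimum in both lines and APOL3 in OVCAR3.

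Cells labelled OVCAR3 (ovarian cancer) or CCL218 (colorectal cancer) were passaged on paired plates with or without hydroxychloroquine (HCQ), an antimalarial drug that gathers in lysosomes and blocks late steps of autophagy. HCQ-evolved cells of both lines had received 15 drug pulses of 48 h, each followed by regrowth in fresh medium, and then 7 drug-free days; they were collected at passage 15. Control cells grew without drug and were collected at passage 19, so passage number and drug history cannot be told apart. The wells of each plate were pooled by plate position into pools labelled L, M and R, which gave 3 pools in each of 4 groups and 12 polyA libraries. The labels do not say which part of the plate each letter stands for. The pools of a group came from a single plate, so all errors and p-values measure only the spread between pools of that plate.

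APOL proteins are mostly intracellular relatives of APOL1, which is secreted and carried on high-density lipoprotein particles, where it kills trypanosomes by inserting into their membranes. The genes lie together on chromosome 22, the family expanded in primates, and interferons and tumour necrosis factor are known to induce them in epithelial, endothelial and immune cells. APOL2 and APOL6 lack a secretion signal, APOL3 acts on membranes of intracellular bacteria after interferon-gamma, and APOL5 is silent in most tissues.

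In the annotation used (GENCODE 44 on hg38, the build of the deposited counts), the family forms 2 runs on chromosome 22. APOL6 (35648446 to 35668404, plus strand) and APOL5 (35717872 to 35729483, plus strand) form the first run. RBFOX2, a splicing factor gene, separates it from APOL3 (36140329 to 36166177, minus strand), APOL4 (36189124 to 36204840, minus strand), APOL2 (36226209 to 36239954, minus strand) and APOL1 (36253071 to 36267530, plus strand). No exon of a member overlapped an exon of another gene on either strand. Of the stretches of 50 bases in the annotated transcripts of each member, 4.16% for APOL1, 5.37% for APOL4, 1.73% for APOL2, 0.529% for APOL6, 0.138% for APOL3 and 0% for APOL5 occurred in another gene, and no stretch of 100 bases did. APOL1 shared such short stretches with APOL2 and APOL3, whereas none of those of APOL4 or APOL6 lay in another member.

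Libraries held 31147822 to 59965861 counts, with 16569 to 18992 symbols above 0, and trimmed-mean (TMM) scaling factors ran from 0.9038 to 1.084. Gene levels also leaned on transcript length to a different degree in each library, with a rank correlation between a library's deviation and transcript length that ran from -0.449 to 0.51 and was highest in the R pool of HCQ-evolved OVCAR3. Ovarian markers did not set OVCAR3 above CCL218 by number present or by summed level, and single markers went both ways. Of 10 such markers, 5 to 6 were at 1 CPM or more in each of the 4 groups, with a summed level of 67.6 to 102 CPM in OVCAR3 pools and 131 to 190 CPM in CCL218 pools. PAX8 (11.8 CPM), MUC16 (22 CPM), MSLN (14 CPM), MECOM (43.6 CPM) and FOLR1 (4.83 CPM) were present in OVCAR3 control pools, WT1 was at 0.293 CPM, and SOX17, EMX2, ESR1 and CDH6 had at most 4 counts in any pool. MUC16 averaged 22 CPM in OVCAR3 and 8.57 CPM in CCL218 control pools, and 31.2 and 4.83 CPM in HCQ-evolved pools. FOLR1 was also higher in OVCAR3, and PAX8 was so in control pools only. MSLN went the other way, at 14 and 63.1 CPM in control and 6.93 and 109 CPM in HCQ-evolved pools, as did MECOM. The intestinal markers VIL1 (237 CPM) and LGALS4 (716 CPM) were abundant in OVCAR3 control pools. Over the 10 intestinal markers, the summed level was 976 to 1140 CPM in OVCAR3 control pools, 248 to 709 in HCQ-evolved OVCAR3, 1240 to 1650 in CCL218 control pools and 1320 to 1370 in HCQ-evolved CCL218. Between control pools of OVCAR3 and CCL218, 253 of 12324 tested genes (2.05%) differed at an adjusted p under 0.05 by edgeR. With plate position as a block, 4442 did. OVCAR3 and CCL218 are used below as labels, and whether they stand for distinct lines was not tested. A result shared by both is therefore not read as a repeat in an independent line. Libraries of both were epithelial, with EPCAM at 783 to 1000 CPM in the means of the 4 groups.

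APOL1, the secreted and most abundant member, was higher in every HCQ-evolved pool than in any control pool of the same line. In OVCAR3 it stood at 103, 82 and 87.3 CPM in the L, M and R control pools and at 201, 236 and 298 CPM in the HCQ-evolved pools. In CCL218 the control pools stood at 88.2, 74.8 and 68 CPM and the HCQ-evolved pools at 257, 219 and 238 CPM. The lowest HCQ-evolved pool of the 6 was thus well above the highest control pool of the 6, whichever line it came from. The fitted log2 fold change was 1.41 (standard error 0.211, 2.66-fold) in OVCAR3 and 1.60 (standard error 0.15, 3.04-fold) in CCL218. In bulk pools a change in the share of cells that express a gene and a change in RNA per cell cannot be told apart.

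APOL4, a minus-strand neighbour of APOL1 whose product remains little characterised, showed the largest change of the family from a low starting level. Control pools of OVCAR3 stood at 3.72, 3.12 and 3.65 CPM and HCQ-evolved pools at 13.1, 17.5 and 39.1 CPM. In CCL218, control pools stood at 2.29, 2.53 and 2.23 CPM and HCQ-evolved pools at 17.5, 17.9 and 19.4 CPM. HCQ-evolved CCL218 pools lay close together, with a coefficient of variation of 5.56%, whereas those of OVCAR3 varied by 59.9% because the R pool stood above the others. APOL4 counts ran from 95 to 197 per control pool and from 743 to 2312 per HCQ-evolved pool, far over a detection floor of 3 counts. The log2 fold change was 2.72 (standard error 0.431, 6.57-fold) in OVCAR3 and 2.93 (standard error 0.144, 7.64-fold) in CCL218, which placed APOL4 at rank 13 of 12204 tested genes in OVCAR3 and at rank 13 of 12241 in CCL218 by fold change. Without the R pool of HCQ-evolved OVCAR3 the OVCAR3 value was 2.09.

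APOL2, an intracellular member that lies between APOL4 and APOL1, was also higher in every HCQ-evolved pool than in any control pool of its line, by a smaller factor. OVCAR3 control pools stood at 67.9, 42.4 and 46.3 CPM and HCQ-evolved pools at 76.1, 86.4 and 92 CPM. CCL218 control pools stood at 54.9, 39.5 and 39.2 CPM and HCQ-evolved pools at 101, 90 and 90 CPM. In both lines the control L pool was the highest of its group, and in OVCAR3 it came near the lowest HCQ-evolved pool. The log2 fold change was 0.68 (standard error 0.23, 1.60-fold) in OVCAR3 and 1.05 (standard error 0.176, 2.07-fold) in CCL218.

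APOL6, which can induce apoptosis, has the longest transcript of the family at 10065 bases and belongs to the other run of genes. Its pools were apart in CCL218 and overlapped in OVCAR3. CCL218 control pools stood at 30.6, 45.5 and 35.6 CPM and HCQ-evolved pools at 83.4, 93.7 and 92.7 CPM, with a log2 fold change of 1.25 (standard error 0.163, 2.38-fold). OVCAR3 control pools stood at 34, 44.4 and 31.5 CPM and HCQ-evolved pools at 41.9, 50.3 and 104 CPM. The HCQ-evolved L pool of OVCAR3 was below the control M pool, and the R pool alone was far above the rest. Among OVCAR3 pools this R pool and the control M pool, highest in APOL6 within their groups, also had the most positive correlation with transcript length (0.51 and 0.465). The OVCAR3 log2 fold change was 0.82 (standard error 0.368), it was 0.30 without that R pool, and it was 0.64 (standard error 0.187) after the trend with transcript length and GC content was removed from each library. Whether the change of APOL6 differed between the lines is tested below.

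APOL3, which acts on membranes of intracellular bacteria, and APOL5 did not share the pattern. APOL3 stood at 1.04, 0.749 and 1.43 CPM in control pools and 0.528, 1.39 and 0.744 CPM in HCQ-evolved pools of OVCAR3. In CCL218 it stood at 1.45, 1.14 and 1.20 CPM in control pools and 1.24, 0.886 and 1.12 CPM in HCQ-evolved pools, with a log2 fold change of -0.25 (standard error 0.249). The pools of APOL3 overlapped in both lines, although the gene lies between RBFOX2 and APOL4, next to the member with the largest change. APOL5 had 0 counts in all 6 control pools and at most 2 counts in any HCQ-evolved pool, below the floor of 3 counts, which corresponded to 0.0507 to 0.0936 CPM and covers counting error only. Its level was therefore not measurable at this depth.

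**Figure D1:**
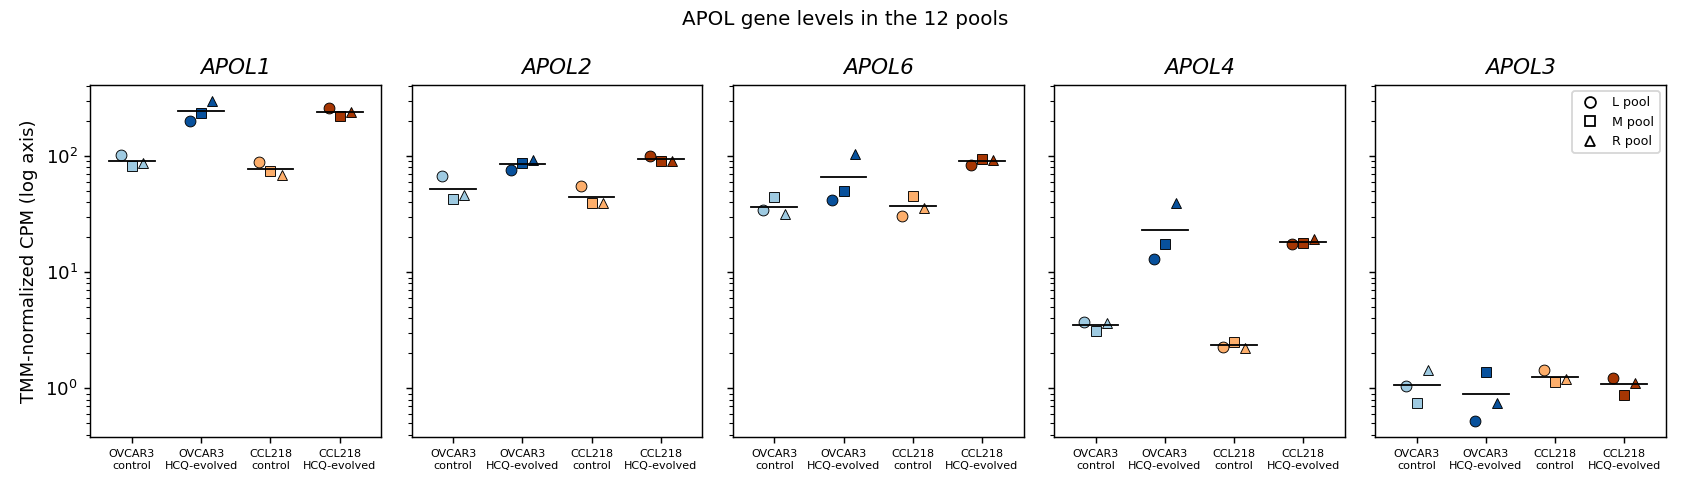
TMM-normalized CPM (log axis) of 5 APOL genes in the L (circle), M (square) and R (triangle) pools of each group, with a bar at the mean of 3 pools; APOL5 is not drawn. APOL1 and APOL4 sat higher in all HCQ-evolved pools than in all control pools, APOL6 overlapped in OVCAR3 (41.9 CPM in the HCQ-evolved L pool, 44.4 CPM in the control M pool), and APOL3 stayed near 1 CPM.

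Counted by the threshold used for all genes (edgeR's quasi-likelihood test, adjusted p under 0.05), 2 members passed as higher in OVCAR3 (APOL1 and APOL4), where 0.647% of tested genes did, and 4 passed in CCL218 (APOL1, APOL2, APOL4 and APOL6), where 3.82% did. With pools that did not overlap as the criterion, 3 of 4 tested members were higher in OVCAR3, against 14.5% of all tested genes, and 4 of 5 were higher in CCL218, against 19.8%. As the family was selected on these contrasts, nothing is read from these counts. In OVCAR3 no member passed when any 1 of the 3 control pools or the HCQ-evolved M pool was left out, APOL4 alone passed without the HCQ-evolved L pool or with plate position as a block, and 0 to 233 genes of all tested passed as higher over the fits without 1 pool. In CCL218, APOL1 and APOL4 passed in every fit without 1 pool, both APOL2 and APOL6 failed without the control R pool or the HCQ-evolved M or R pool, and APOL2 alone failed without the control M or HCQ-evolved L pool.

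A difference in the change between the lines was not detected for any member, within broad intervals. APOL1 and APOL4 were chosen for a rise in both lines, so for them this outcome was partly set by that choice and nothing is read from it. The difference of the log2 change, CCL218 minus OVCAR3, was 0.22 for APOL1 (95% interval -0.33 to 0.76, adjusted p = 0.999 by edgeR's interaction test) and 0.25 for APOL4 (-0.76 to 1.26, adjusted p = 0.999). It was 0.40 for APOL2 (-0.26 to 1.05, adjusted p = 0.901) and 0.45 for APOL6 (-0.47 to 1.38, adjusted p = 0.979). For APOL3 it was 0.09 (-1.05 to 1.22, adjusted p = 0.999). Of these 5 members 0 passed, against 0.872% of all tested genes; 0 had an unadjusted p under 0.05, and DESeq2 also called 0. The intervals still allow a difference of more than 1 log2 unit for APOL2, APOL3, APOL4 and APOL6.

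In control pools no member differed between the lines past the threshold in the main fit, which held no block for plate position. The log2 difference of control CCL218 from control OVCAR3 was -0.25 for APOL1 (95% interval -0.67 to 0.18, adjusted p = 0.57, edgeR), -0.24 for APOL2 (-0.83 to 0.35, adjusted p = 0.663), 0.21 for APOL3 (-0.54 to 0.95, adjusted p = 0.765) and 0.01 for APOL6 (-0.49 to 0.52, adjusted p = 0.976). APOL4 was the exception in its pools, since the highest CCL218 control pool (2.53 CPM) was below the lowest OVCAR3 control pool (3.12 CPM). Its log2 difference was -0.58 (standard error 0.214, unadjusted p = 0.0271, adjusted p = 0.315, edgeR), so 0 of 5 members passed by edgeR, 1 had an unadjusted p under 0.05 and DESeq2 called 0, against 2.05% of all tested genes that passed in edgeR. Same-position control pools deviated together across genes, and with plate position as a block APOL4 passed (log2 difference -0.58, adjusted p = 0.045) while 4442 genes passed in all, against 253 without the block. Over all alternatives the adjusted p of APOL4 ran from 0.045 to 0.867.

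In HCQ-evolved pools no member differed past the threshold either. The log2 difference of HCQ-evolved CCL218 from HCQ-evolved OVCAR3 was -0.04 for APOL1 (95% interval -0.44 to 0.36, adjusted p = 0.863, edgeR), 0.14 for APOL2 (-0.15 to 0.44, adjusted p = 0.444) and -0.35 for APOL4 (-1.30 to 0.60, adjusted p = 0.552). APOL3 gave 0.29 (-0.66 to 1.23, adjusted p = 0.625) and APOL6 gave 0.45 (-0.36 to 1.27, adjusted p = 0.377). None of the 5 passed, 0 had an unadjusted p under 0.05 and DESeq2 called 0, against 13.6% of all tested genes that passed in edgeR. APOL6 rested on 1 pool: without the R pool of HCQ-evolved OVCAR3 the difference was 0.95 (adjusted p = 1.76e-05, over all alternatives 1.76e-05 to 0.724), in a fit where 8149 genes passed. With the trend of length and GC content removed it was 0.17 (adjusted p = 0.502). These comparisons share libraries with those of HCQ-evolved against control pools and with each other.

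**Figure D2:**
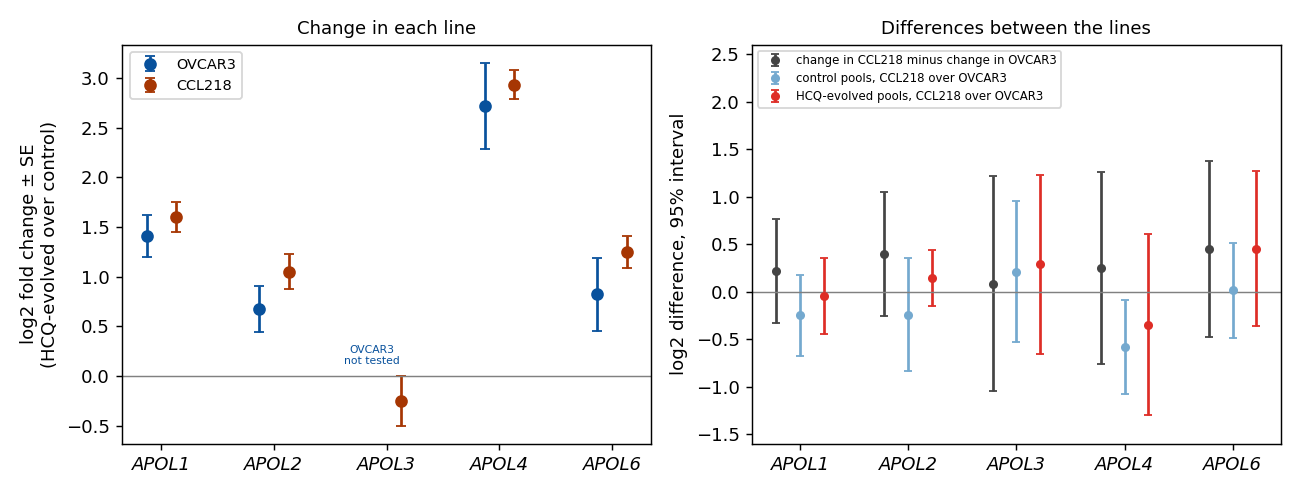
Left, log2 fold change of HCQ-evolved over control pools with its standard error, by line; APOL3 was not tested in OVCAR3. Right, log2 differences between the lines with 95% intervals, for the change, for control pools and for HCQ-evolved pools; the interval of APOL4 in control pools (-1.08 to -0.09) was the only one without 0, and its adjusted p was 0.315.

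Per kilobase of the longest transcript, APOL1 stood highest, followed by APOL2, in every group. In control pools APOL1 was at 30.2 ± 3.59 CPM per kb in OVCAR3 and 25.7 ± 3.42 in CCL218 (mean and SD, n = 3), and APOL2 was at 19.5 ± 5.11 and 16.6 ± 3.34. APOL6 followed at 3.64 ± 0.675 and 3.70 ± 0.752 CPM per kb, APOL4 at 1.02 ± 0.0963 and 0.686 ± 0.0474, and APOL3 at 0.295 ± 0.0937 and 0.347 ± 0.0451. All neighbours in this order were apart in control pools by more than their SDs.

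After evolution APOL1 reached 81.7 ± 16.3 CPM per kb in OVCAR3 and 79.4 ± 6.33 in CCL218, and APOL2 reached 31.6 ± 3.01 and 34.9 ± 2.45. In HCQ-evolved OVCAR3, APOL4 (6.79 ± 4.07 CPM per kb) and APOL6 (6.51 ± 3.36) did not differ beyond their spread, and with the union of exons as length APOL4 fell below APOL6 (5.26 against 6.51). In HCQ-evolved CCL218, APOL6 (8.94 ± 0.561) stayed above APOL4 (5.34 ± 0.297). The choice of transcript moved APOL3 most: with MANE Select transcripts it stood at 0.617 CPM per kb in CCL218 control pools, close to APOL4 at 0.766, and it was still the lowest of the 5.

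The summed level of the family was 54.6 ± 8.44 CPM per kb in control and 127 ± 26.4 in HCQ-evolved OVCAR3, and 47 ± 6.27 and 129 ± 7.98 in CCL218. Its make-up shifted alike in both lines. As APOL1 and APOL4 were chosen for their rise in both, the higher sum and this shift were partly set by that choice, and nothing is read from them. APOL1 went from 55.5% to 64.5% of the sum in OVCAR3 and from 54.6% to 61.6% in CCL218, and APOL4 from 1.89% to 5.08% and from 1.48% to 4.16%. APOL2 made up a smaller part after evolution, 25.3% against 35.2% in OVCAR3 and 27.1% against 35.1% in CCL218, although its own level was higher. The ratio of APOL1 to APOL4 counts, which length does not affect when groups are compared, was 23.9 to 27.6 in OVCAR3 control pools and 7.61 to 15.4 in HCQ-evolved pools, and 29.5 to 38.5 and 12.2 to 14.7 in CCL218. The ratio of APOL4 to APOL6 varied less between HCQ-evolved OVCAR3 pools (0.312 to 0.375) than either gene did, and both genes were highest in the R pool.

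**Figure D3:**
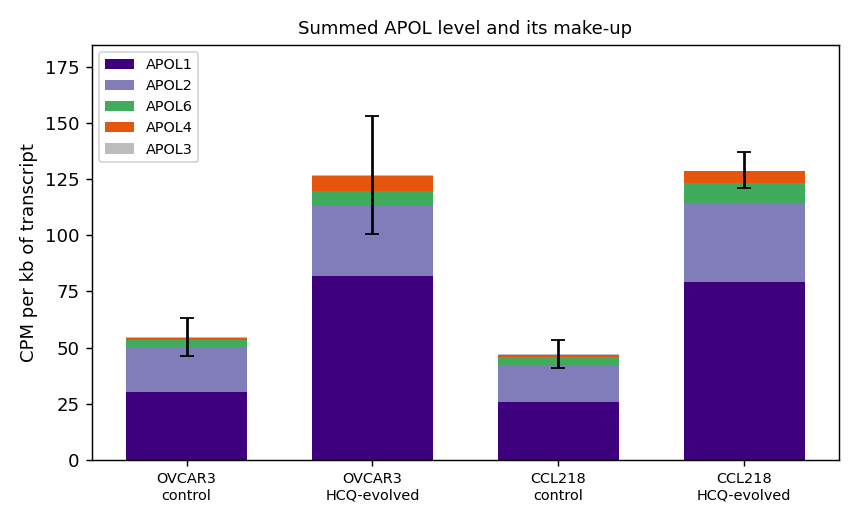
Mean level of APOL1, APOL2, APOL6, APOL4 and APOL3 in CPM per kb of the longest transcript, stacked, with the SD of the summed level over 3 pools as error bar. The stacks stood at 54.6 and 47 in control pools and at 127 and 129 in HCQ-evolved pools of OVCAR3 and CCL218.

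Across the 12 pools APOL1 and APOL4 followed each other closely (Pearson r = 0.986 of log2 CPM), and APOL1 was followed by APOL2 (r = 0.957) and APOL6 (r = 0.813) but not by APOL3 (r = -0.287). These values describe pools that fall into HCQ-evolved and control groups and share libraries and scaling, so they carry no p-value. APOL1 and APOL4 were chosen for their rise in these same pools, so the correlation between them was partly set by that choice. The 5 genes most like APOL1 among 12612 were ENO2 (0.986), APOL4, LGALS9C (0.975), EGLN3 (0.974) and NCKIPSD (0.972). The 5 most like APOL4 were APOL1, ENO2 (0.979), PPP1R14C (0.976), IL1RN (0.976) and NCKIPSD (0.975). By rank correlation APOL2 came first for APOL1 (Spearman rho = 0.986), 1 of the 5 genes (ENO2) stayed among the 5 most like APOL1, and 0 stayed among those most like APOL4.

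None of these genes outside the family lies on chromosome 22. ENO2, the neuronal form of the glycolytic enzyme enolase, averaged 42.1 CPM in control and 150 CPM in HCQ-evolved OVCAR3 pools, and 27.9 and 133 CPM in CCL218. EGLN3, a prolyl hydroxylase that acts on hypoxia-inducible factors, averaged 45 and 133 CPM in OVCAR3 and 35.2 and 163 CPM in CCL218. IL1RN, which encodes the interleukin-1 receptor antagonist, averaged 4.83 and 10.6 CPM in OVCAR3 and 4.11 and 9.14 CPM in CCL218. NCKIPSD moved by a smaller factor with narrow spread, from 42.3 ± 2.15 to 67.2 ± 3.59 CPM and from 40 ± 0.815 to 62.1 ± 0.987 CPM. LGALS9C, a galectin gene with near-identical copies whose count is therefore uncertain, averaged 0.491 and 3.06 CPM in OVCAR3 and 0.554 and 2.59 CPM in CCL218, and PPP1R14C, a phosphatase inhibitor gene, averaged 0.487 and 1.96 CPM and 0.312 and 1.56 CPM.

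The genes beside the APOL runs had smaller fold changes than APOL4 in both lines, and only MB, in CCL218, exceeded APOL1. As APOL1 and APOL4 were chosen for their rise, this order was partly set by that choice and nothing is read from it. RBFOX2, between the runs, had a log2 fold change of 0.52 (standard error 0.731) in OVCAR3 and 0.55 (standard error 0.381) in CCL218 and passed in neither line. MYH9, the nonmuscle myosin heavy chain gene next to APOL1, had 0.39 (standard error 0.441) in OVCAR3 and rose in CCL218 by 0.66 (standard error 0.136, adjusted p = 0.0336, edgeR), from 1330 ± 126 to 2150 ± 143 CPM. MB, the myoglobin gene next to APOL6, rose in CCL218 by 1.71 (standard error 0.348, adjusted p = 0.0345) and had 1.06 (standard error 0.307, adjusted p = 0.135) in OVCAR3.

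Within 1 Mb of the loci, 17 genes other than the members were tested, and their fold changes had a median of 0.16 (log2) in OVCAR3 and 0.29 in CCL218, beside 0.02 and -0.02 over all tested genes. In OVCAR3 0 passed as higher by edgeR (1 by DESeq2, and 3 with an unadjusted p under 0.05 in either direction) and RASD2, a small GTPase gene, passed as lower (-1.54, standard error 0.236, adjusted p = 0.0266). With any 1 pool left out other than the HCQ-evolved R pool, 0 of the 17 passed in OVCAR3. In CCL218 4 passed as higher and 0 as lower, and 7 passed as higher with plate position as a block. Without the control L pool 8 passed, without the control M pool 1, and without the control R pool or any 1 HCQ-evolved pool 0. RASD2 was 1 of those 4 (1.21, adjusted p = 0.0481) and the only gene of the 17 whose change differed between the lines (2.77, adjusted p = 0.00449). KCTD17 had the lowest value in CCL218 (-0.38, adjusted p = 0.172). Without the R pool of HCQ-evolved OVCAR3 the OVCAR3 median of these 17 genes was -0.15.

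Over chromosome 22 outside the family, the fold change had a median of 0.14 (log2) for 287 genes in OVCAR3 and 0.15 for 289 genes in CCL218. As many as 63.1% and 64% of them were above 0, against 51.6% and 48.3% of all tested genes. In OVCAR3 1 passed as higher (0.348%, against 0.647% of all tested genes) and 3 as lower, but 17 and 11 did by DESeq2, 19 and 12 in 1 fit of all libraries and 13 and 6 with the trend of length and GC content removed. In CCL218 29 passed as higher (10%, against 3.82%) and 2 as lower, or 55 and 7 with plate position as a block, 64 and 11 by DESeq2 and 71 and 8 with the trend removed. Fits without 1 pool gave 0 to 9 higher in OVCAR3, where the 9 came without the HCQ-evolved R pool and the median was then -0.02. In CCL218 they gave 4 to 93 higher, with 93 without the control L pool and 4 to 15 without any other. Whether DNA copy number of chromosome 22 had a part in the members' values was not tested. The authors inferred copy number from single-cell RNA and reported that this chromosome was positively selected in HCQ-evolved cells of both lines.

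**Figure D4:**
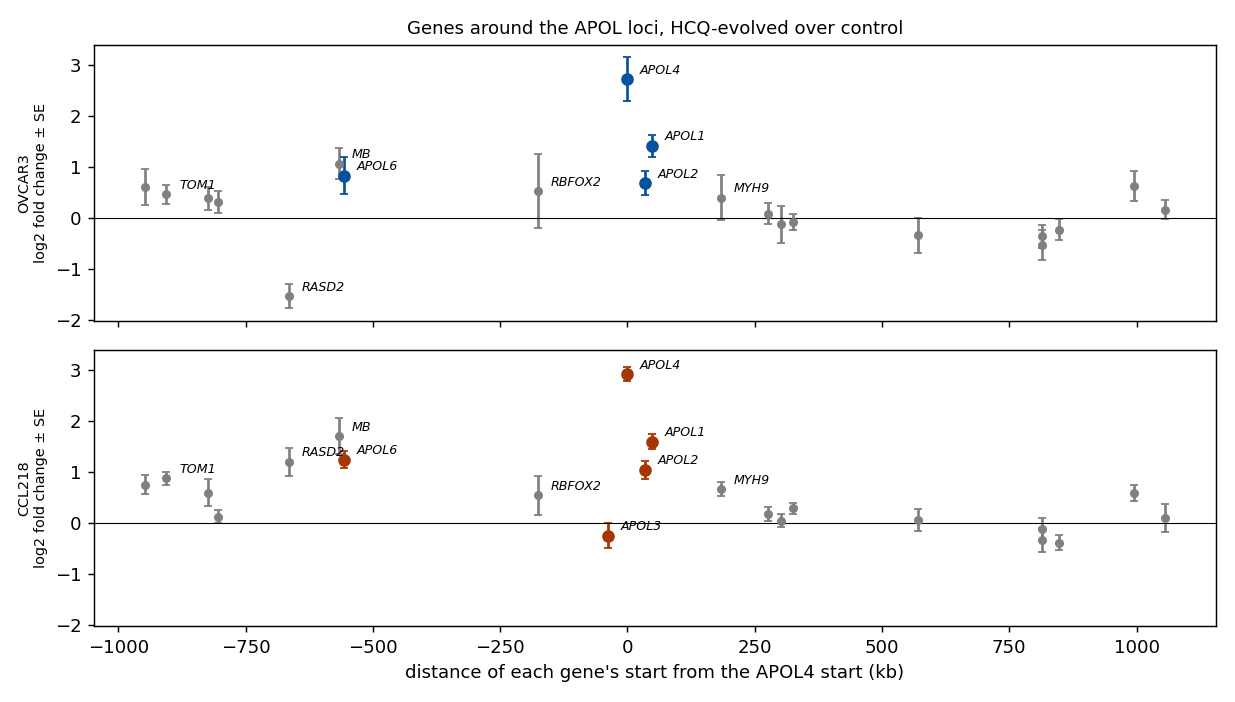
Log2 fold change with standard error of the tested genes around the APOL loci, against the distance of each gene's start from the APOL4 start in kb, with OVCAR3 above and CCL218 below; APOL genes are in colour and other genes in grey. In OVCAR3 APOL4 and APOL1 (2.72 and 1.41), chosen for their rise, stood above their neighbours. In CCL218 MB (1.71) exceeded APOL1 (1.60), and APOL3 at -0.25 sat beside APOL4.

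Interferons are known inducers of the family, so genes of that response were set beside the members. All gene lists, also those above, were chosen with earlier results of these data known. Their counts beside all tested genes are therefore a description, with no set test. Of 36 type I interferon-stimulated genes, 32 were tested in OVCAR3 and had a median of 0.93 (log2 fold change); 9 rose and 0 fell, or 28.1% called higher against 0.647% of all tested genes. IFI44L rose most (4.29, standard error 0.389, adjusted p = 0.00706, edgeR), from 0.392 to 8.04 CPM, and the antiviral GTPase gene MX2 rose by 2.37 (adjusted p = 0.0105). IFITM2, which encodes a membrane protein that restricts viral entry, had the lowest value (-0.55, adjusted p = 0.428). Over fits without 1 pool, 0 to 17 genes of the list passed as higher in OVCAR3, with 17 of 30 without the HCQ-evolved R pool, 0 without the control L pool or the HCQ-evolved M pool, and 1 in each of the other 3.

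In CCL218 33 genes of that list were tested, with a median of 0.45; 4 rose and 1 fell, or 12.1% called higher against 3.82%, and 10 rose with plate position as a block. IFI44L rose by 1.22 (adjusted p = 0.0394) and IFITM2 fell by 2.05 (adjusted p = 0.0329). Fits without 1 pool gave 0 to 16 genes, with 16 without the control L pool, 1 without the HCQ-evolved M pool and 0 in each of the other 4. IFI44L averaged 3.6 CPM in control and 8.53 CPM in HCQ-evolved CCL218, beside 0.392 and 8.04 CPM in OVCAR3. MX2 averaged 6.19 and 9.72 CPM in CCL218, beside 1.34 and 7.02 CPM in OVCAR3. From these higher control levels, the changes of IFI44L (-3.04, adjusted p = 0.0104) and MX2 (-1.73, adjusted p = 0.0439) were smaller in CCL218 by the interaction test. The list then had 2 genes with a smaller change, 0 with plate position as a block, 1 with upper-quartile scaling, 4 by DESeq2 and 1 to 3 without 1 pool, with 3 without the HCQ-evolved R pool of OVCAR3, 2 without the HCQ-evolved L pool of CCL218 and 1 without any other. No such difference passed for a member of the APOL family. As APOL1 and APOL4 were chosen for a rise in both lines, nothing is read from that contrast.

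Pool by pool, APOL1 and the interferon-stimulated genes kept the same order in both groups of CCL218 and not in HCQ-evolved OVCAR3. The mean level of 34 of these genes, in log2 CPM relative to each gene's mean over the 12 pools, was 0.51, 0.36 and -0.30 in the L, M and R pools of HCQ-evolved OVCAR3. APOL1, APOL4 and APOL6 ran in the opposite order there, with the R pool highest. In HCQ-evolved CCL218 the list stood at 0.82, 0.35 and 0.55 and APOL1 was likewise highest in L and lowest in M, while APOL4 was highest in R. Control pools of CCL218 stood at 0.30, 0.15 and 0.11 and those of OVCAR3 at -0.91, -1.02 and -0.91, so that in CCL218 both the list and APOL1 were highest in L and lowest in R, and in OVCAR3 both were lowest in M. Between these control groups APOL1 (77 and 90.7 CPM) and APOL4 (2.35 and 3.50 CPM) did not differ past the threshold without the block, as given above. The R pool of HCQ-evolved OVCAR3 had the highest APOL1 and APOL4 of all 12 pools. It also had the most positive correlation with transcript length (0.51), for which the levels compared here were not corrected. In its interferon-stimulated genes it lay above all 3 control pools of OVCAR3 and below all 3 control pools of CCL218. Whether interferon had a part in the members' values was not tested.

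**Figure D5:**
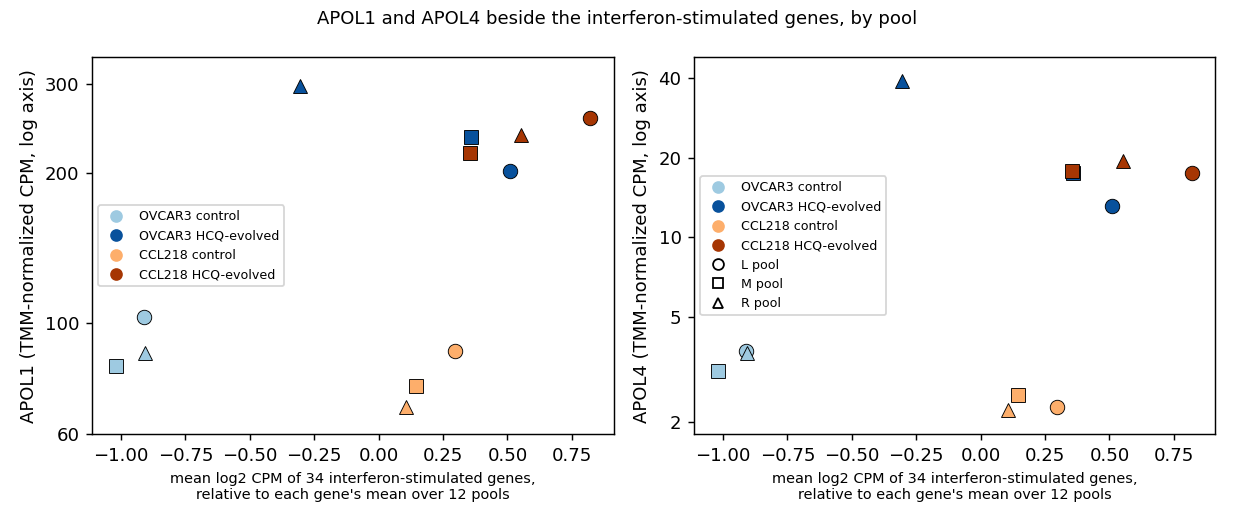
APOL1 (left) and APOL4 (right) in TMM-normalized CPM (log axis) against the mean log2 CPM of 34 type I interferon-stimulated genes, relative to each gene's mean over 12 pools, 1 symbol per pool (L circle, M square, R triangle). The HCQ-evolved OVCAR3 R pool stood at -0.30 with 298 CPM of APOL1. OVCAR3 control pools stood at -1.02 to -0.91 with 82 to 103 CPM, and CCL218 control pools at 0.11 to 0.30 with 68 to 88.2 CPM.

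Targets of interferon-gamma and its factor IRF1 formed a further list. In OVCAR3 1 of 14 rose (7.14%, against 0.647% of all tested genes) and 0 fell, with a median of 0.16. The gene that rose was UBE2L6 (2.26, standard error 0.391, adjusted p = 0.0382, edgeR), the conjugating enzyme for the ubiquitin-like protein ISG15, and SOCS1, a feedback inhibitor of cytokine signalling, had the lowest value (-1.54, adjusted p = 0.147). In CCL218 3 of 15 rose (20%, against 3.82%) and 1 fell, with a median of 0.17. UBE2L6 rose by 1.16 (adjusted p = 0.0178) and the chemokine gene CXCL11 fell by 1.09 (adjusted p = 0.0334). In OVCAR3 0 passed with any 1 pool left out. In CCL218 0 passed without the control R pool or any 1 HCQ-evolved pool, 3 rose without the control M pool, and 6 rose and 2 fell without the control L pool.

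Interferon receptors and signal transducers gave 0 calls among 16 genes in either line by edgeR, with 3 at an unadjusted p under 0.05 in each line. DESeq2 called 2 higher in OVCAR3 and 1 in CCL218, and 1 passed in CCL218 with plate position as a block. Without the HCQ-evolved R pool 1 rose in OVCAR3, and without the control L pool 4 rose in CCL218. IFNLR1, a receptor subunit for type III interferons, had the lowest value in OVCAR3 (-0.52, adjusted p = 0.399). In CCL218 the kinase gene JAK2 had the highest (0.67, adjusted p = 0.11) and IRF3 the lowest (-0.28, adjusted p = 0.499). The medians were 0.14 and 0.15.

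NF-kappaB, which carries the signal of tumour necrosis factor, was represented by 15 tested target genes in OVCAR3 (median 0.02) and 14 in CCL218 (median -0.18). BIRC3, an inhibitor of apoptosis, rose by 1.46 (adjusted p = 0.0484, edgeR) in OVCAR3, from 2.56 to 7.15 CPM, and by 1.72 (adjusted p = 0.00475) in CCL218, from 2.43 to 8.12 CPM. It was the only target called higher in either line. With plate position as a block it did not pass in OVCAR3, where 0 targets then passed, while 2 passed as higher and 3 as lower in CCL218. Chemokine genes held the lowest values, CXCL3 in OVCAR3 (-1.19, adjusted p = 0.334) and CXCL1 in CCL218 (-1.35, adjusted p = 0.0757), and 1 gene, CXCL8, fell in CCL218 (-0.95, adjusted p = 0.0323). With any 1 pool left out other than the HCQ-evolved R pool, 0 targets passed in OVCAR3. In CCL218 1 target rose in each fit without 1 pool except that without the control L pool, where 2 rose and 5 fell, and 0 fell in the others.

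Apolipoproteins outside the L family, which share its name, gave 0 calls among 7 tested genes in OVCAR3 (median 0.30, 0 at an unadjusted p under 0.05, 0 by DESeq2). APOOL, of the mitochondrial inner membrane, had the highest value (0.41, adjusted p = 0.738) and APOC1, of circulating lipoproteins, the lowest (-0.61, adjusted p = 0.556). The list also holds APOLD1, named after its value was seen, which carries an apolipoprotein L domain and had -0.24 (adjusted p = 0.697) in OVCAR3 and -0.02 (adjusted p = 0.945) in CCL218. In CCL218 1 of 8 fell and 0 rose (median 0.08), and 2 fell with plate position as a block. The gene that fell was CLU, which encodes the secreted chaperone clusterin (-1.25, standard error 0.16, adjusted p = 0.00724), from 7.13 to 3.06 CPM, and its change differed between the lines (-1.62, adjusted p = 0.0358). No gene of the list fell in CCL218 without its HCQ-evolved M or R pool, and none differed between the lines with any 1 of the 12 pools left out other than the HCQ-evolved R pool of OVCAR3. APOOL again had the highest value (0.48, adjusted p = 0.532).

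APOL genes are known to be expressed in endothelial and immune cells, and markers of these cells were read in the same pools. Of 6 endothelial markers, CDH5, VWF, KDR and TIE1 were at a mean of at most 0.147 CPM in each group, and the summed level was 3.13 to 3.96 CPM in control and 1.02 to 3.35 CPM in HCQ-evolved OVCAR3 pools and 1.24 to 1.83 and 0.982 to 1.92 CPM in CCL218. Of 4 leukocyte markers, PTPRC, present on all leukocytes, had at most 0.0398 CPM in the mean of any group and CD3E at most 0.0576 CPM. The summed level of the list was 27.1 to 32.3 CPM in control and 50.4 to 55 CPM in HCQ-evolved OVCAR3, and 17.9 to 18.7 and 55.3 to 59.6 CPM in CCL218. CD68, a lysosomal membrane glycoprotein that is not limited to leukocytes, carried this difference (14.8 against 36 CPM and 12.6 against 50.5 CPM). The 4 fibroblast markers summed to 1.53 to 1.92 CPM in control and 0.609 to 1.66 CPM in HCQ-evolved OVCAR3 pools and to 1.63 to 3.18 and 2.30 to 2.99 CPM in CCL218, with COL1A2 at 0 in 3 of the 4 groups.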

How the data were processed

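PolyA RNA from 12 pools was sequenced by the authors, aligned to hg38 with STAR, cleared of duplicates and counted per gene with featureCounts; versions, annotation and strand setting are not given in the sources used here. The deposited values are raw counts for 28278 symbols, with 31147822 to 59965861 per library, with 0 unmapped columns. The members, gene lists and tests were chosen with earlier results of these data known. Genes that reached 1 CPM, before TMM scaling, in 3 or more libraries of a fit were scaled by TMM and entered edgeR 4.0.16 (R 4.3.3; quasi-likelihood F test, robust, legacy mode) with p-values adjusted by Benjamini and Hochberg and called at 0.05, each line alone, and over all 12 libraries for the interaction. Scripts were tested on simulated data. Alternatives were DESeq2 1.42.0, upper-quartile scaling, no filter, 1 fit of all libraries, a position block, removal of a length and GC trend, and fits without 1 pool. Levels per kb and coordinates used GENCODE 44, which matched 25763 symbols (91.1%). Adjusted p-values in the text come from edgeR unless named otherwise.

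Genes named were the 6 members, the 5 genes most like APOL1 and APOL4, the genes next to the APOL runs, the highest and lowest fold change of each list per line, and list genes that differed between lines; CXCL8 was named after its value was seen. A gene that the rule would name is not reported here. Plate position paired the pools where same-position deviations correlated above 0.1 in all 3 pairs. This held for HCQ-evolved against control CCL218 (0.533, 0.261, 0.224) and for control pools between lines (0.858, 0.824, 0.248), but not for OVCAR3 (0.414, -0.684, -0.495) or HCQ-evolved pools between lines (0.526, -0.11, 0.545). The main fits held no position block, also where this rule was met, and a block entered an alternative fit of every comparison.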

Additional observations from a re-analysis of the deposited data

How the results depend on the processing

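With a replicate block for plate position, 1 member passed as higher in OVCAR3 in place of 2, and 1 member (APOL4) differed between control pools in place of 0; in CCL218 the block changed no member's call. Fits without 1 pool gave 0 to 2 members called in OVCAR3, 2 to 4 in CCL218 and, between HCQ-evolved pools, 0 to 1; the libraries are named above. The number of members called did not change under the other alternatives tried. Fold changes of APOL1, APOL2, APOL4 and APOL6 in HCQ-evolved over control pools stayed above 0 under every alternative run.

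Small differences between the lines changed sign. APOL6 between control pools was -0.321 with the length and GC trend removed. Over fits without 1 pool, the log2 difference ran from -0.147 to 0.16 for APOL6 and from -0.446 to 0.0085 for APOL2 between control pools, from -0.171 to 0.112 for APOL1 and from -0.637 to 0.247 for APOL4 between HCQ-evolved pools, and, for the difference of the change, from -0.181 to 0.554 for APOL3 and from -0.0365 to 0.853 for APOL4. The cause was not tested.

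The background of all tested genes also moved with the fit. Genes called higher in OVCAR3 were 79, against 17 with the block, 542 by DESeq2, 558 with all libraries in 1 fit, 243 with no filter and 477 with the trend removed; in CCL218 they were 468, against 957, 1104 and 1041 for the block, DESeq2 and the trend, and 72 to 1646 without 1 pool. Counted in either direction, calls for the difference of the change were 110, against 35, 463 and 319, and 38 to 212 without 1 pool. Between control pools they were 253, against 4442, 734 and 461, 431 in 1 fit of all libraries, 394 with no filter, and 25 to 471 without 1 pool. Between HCQ-evolved pools they were 1662, against 3266 by DESeq2 and 2549 with the trend removed, and 152 to 8149 without 1 pool. The split of higher against lower calls also moved with the trend removed, in OVCAR3 from 79 and 148 to 477 and 375, and for the difference of the change from 87 and 23 to 194 and 125. Chosen after seeing the data, the same fits were run for the type I interferon list, where 5 genes rose in OVCAR3 with the block, 17 by DESeq2 and 19 in 1 fit of all libraries in place of 9, and in CCL218 11 by DESeq2, 8 with the trend removed and 2 in 1 fit of all libraries in place of 4. Depth limits APOL5, and APOL3 at 24 to 77 counts per pool is the least precise of the measured members.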
